A study of Mus musculus with 6 samples.

Results

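The messages of 10 genes of insulin-like growth factor (IGF) signalling were followed through an immunoprecipitation of RNA with CPEB4, a protein that binds cytoplasmic polyadenylation elements in the 3' untranslated regions of messages. They were 6 IGF binding proteins (Igfbp2, Igfbp3, Igfbp4, Igfbp5, Igfbp6 and Igfbp7), the receptors Igf1r and Insr, and the receptor substrates Irs1 and Irs2. The 10 were taken by symbol from a table of read counts over 55376 genes, and all 10 passed the filter on low counts, as did 18054 genes in all. They were chosen by name with results of these same libraries known, and Igfbp7 and Irs2 were picked out for their values. The values of Igfbp7 and Irs2 are therefore given as a description with no test, and the counts of members past a threshold are descriptions too.

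The libraries came from muscle stem cells sorted from 3-month-old C57BL/6 mice, with no genotype or treatment named that differs between the groups. The 3 groups of 2 libraries were RNA pulled down with an antibody to CPEB4 (CPEB4 RIP), RNA pulled down with control immunoglobulin (IgG RIP), and total RNA of the cells (input). Values are given in that order of groups, as measured with CPEB4, with IgG and in input. The series design calls the CPEB4 RIP libraries biological replicates. The labels do not say how many mice were pooled or whether same-numbered libraries share cells, and the p-values therefore reflect only variation among these libraries, which may be technical. Libraries were made by SMART-seq2, a full-length amplification method for small amounts of RNA.

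IGF1, IGF2 and insulin act through the receptor tyrosine kinases encoded by Igf1r and Insr, which phosphorylate the docking proteins IRS1 and IRS2. These recruit phosphoinositide 3-kinase and so activate AKT, which drives protein synthesis through mTORC1 and holds back the FOXO transcription factors. Secreted IGF binding proteins hold the ligands in the fluid around the cells, where they can block or prolong signalling. In skeletal muscle the pathway is known for its part in growth, regeneration and the balance of protein synthesis and breakdown.

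Total counts ran from 9018323 to 20843042 per library. PCR reads without molecular identifiers are not independent molecules, so counts limit only the counting error. The 2 IgG RIP libraries resembled each other least of all pairs of libraries (Pearson r = 0.87 over log CPM of the genes tested), against 0.98 for the CPEB4 RIP pair and 0.97 for the input pair. A fit without 1 library leaves a group of 1, which is then assumed to vary as the other groups do, and a call that appears in such a fit rests on their spread alone. Without IgG RIP replicate 1 or 2, the genes called higher over IgG RIP went from 4.79% to 23.6% and 18.5% of all genes tested. The stem cell markers Pax7, Myf5 and Myod1 were present in every library, at 151 to 290, 1172 to 4794 and 750.5 to 1025 CPM (read counts scaled to a common library total, with trimmed means of log ratios as factors). The 10 stem cell markers of the list summed to 46110 to 68920 CPM, of which Sdc4 alone held 41600 to 61960. Of these 10, Vcam1 fell by 0.87 on the log2 scale against IgG RIP (adjusted p = 0.0117) and by 1.18 against input, Calcr fell by 1.38 against input, and Sdc4, Spry1 and Chrdl2 rose over input. The summed level of 10 fibro-adipogenic markers was 2595 and 1953 CPM with CPEB4, 1227 and 1750 with IgG, and 847 and 1122 in input, while Pdgfra, which defines those cells, was at 1.07 to 4.89 CPM. The sum of 10 endothelial markers was 634 and 428 CPM with CPEB4, 322 and 444 with IgG, and 354 and 383 in input, with Pecam1 at 32.7 to 53.2 CPM. All 10 of each of these lists were tested. In bulk RNA, fewer cells of a type and less RNA per cell cannot be told apart. Leukocyte markers summed to 65.4 and 87.5 CPM with CPEB4, 41.2 and 54.5 with IgG, and 35.7 and 43.4 in input. Of their 10, 3 (Cd3e, Itgam and Adgre1) were at 0 in at least 1 library. S100a8 rose over IgG RIP and over input, and no other of the 8 tested leukocyte markers passed in either comparison. Pericyte and smooth muscle markers summed to 942 to 1552 CPM. Myofibre markers summed to 282 and 222 CPM with CPEB4, 132 and 170 with IgG, and 140 and 199 in input, so they were highest in CPEB4 RIP. Of those 10, 4 rose over IgG RIP (Tnnt3, Tnni2, Mylpf and Myl1) and 3 of these over input (Tnnt3, Tnni2 and Myl1). The shares of all genes called higher were 4.79% and 8.0%. The part of the myofibre markers in the results on the 10 messages was not tested. Cpeb4 itself, the gene of the protein pulled down, was at 16.5 and 14.9 CPM with CPEB4, 11.0 and 30.7 with IgG, and 13.2 and 13.6 in input, and did not pass in any comparison.

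**Figure D1:**
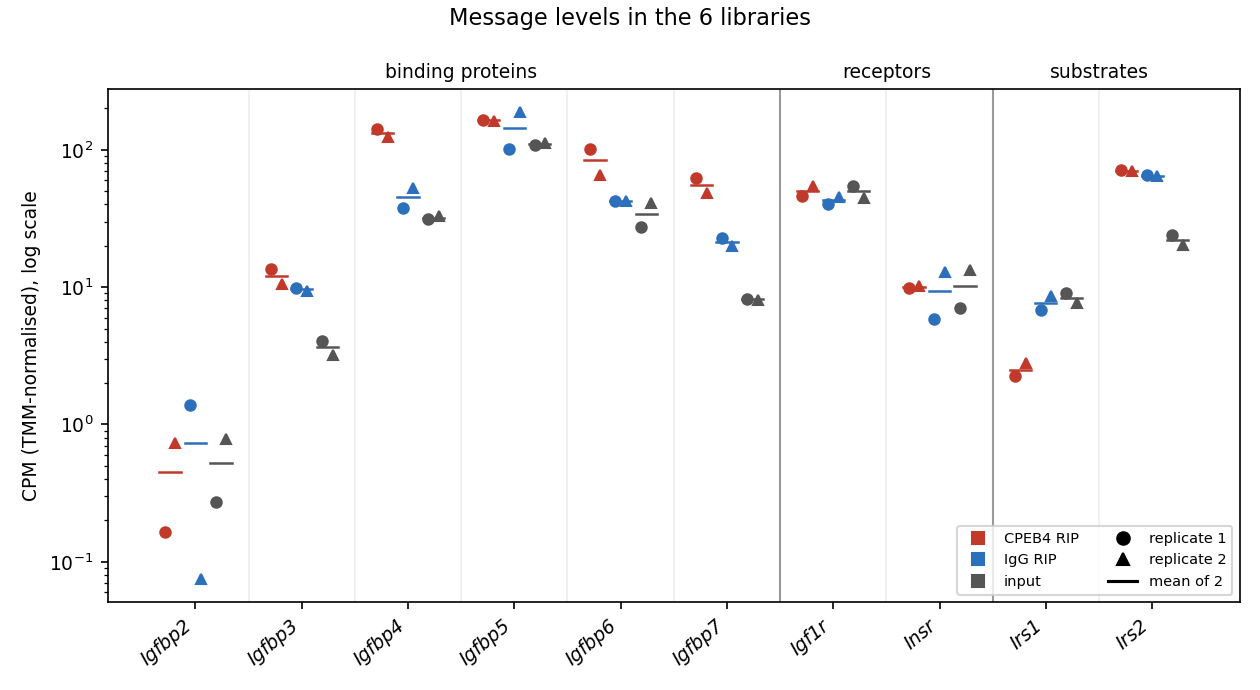
The level of each message in each of the 6 libraries, in CPM on a log scale, with circles for replicate 1, triangles for replicate 2 and a bar at the mean of 2. Igfbp4, Igfbp6 and Igfbp7 are highest in both CPEB4 RIP libraries, Irs1 is lowest there, and Irs2 is high in both kinds of RIP library. Levels are not scaled by message length, so heights compare libraries within 1 gene and not genes with each other.

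Counted over all 10, with Igfbp7 and Irs2 included, 2 were called higher in CPEB4 RIP than in IgG RIP (Igfbp4 and Igfbp7) and 1 lower (Irs1). The background was 4.79% of all genes tested called higher and 3.42% called lower. Without CPEB4 RIP replicate 1 or 2 the higher count was 1 and 0, beside 0.861% and 0% of all genes. Without IgG RIP replicate 1 or 2 it was 3 and 4, beside 23.6% and 18.5%. Over input, 5 were called higher (Igfbp3, Igfbp4, Igfbp6, Igfbp7 and Irs2) and 1 lower (Irs1), against a background of 8.0% and 4.70%. That higher count was 3 without CPEB4 RIP replicate 1, 2 without CPEB4 RIP replicate 2 and 3 without input replicate 1, beside 2.34%, 0.439% and 1.73% of all genes. The median log2 fold change of the 10 was 0.20 over IgG RIP and 0.94 over input. Since the genes were selected with these contrasts known, nothing is read from the shares or the medians. Igfbp7 and Irs2 stand in these counts as members, and their calls are no test of them.

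Among the binding proteins, Igfbp7 and Igfbp4 stood highest in CPEB4 RIP relative to both controls, at 2.61-fold and 2.93-fold over IgG RIP and 6.81-fold and 4.14-fold over input. Igfbp6 and Igfbp3 rose over input but did not pass over IgG RIP. Igfbp5 and Igfbp2 passed in neither comparison. The median log2 fold change of the 6 was 0.65 over IgG RIP and 1.51 over input, beside -0.07 and -0.06 over all genes tested. Igfbp7 was picked for its values and the 6 were chosen with results known, so nothing is read from these medians. Both comparisons share the CPEB4 RIP libraries, so their values are set side by side and are not independent of each other.

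Igfbp7 encodes a secreted protein of the vessel wall and matrix that binds IGFs only weakly and binds insulin as well. Its level was 62.7 and 48.7 CPM with CPEB4, 22.8 and 19.8 with IgG, and 8.21 and 8.12 in input. The 3 groups did not overlap, and IgG RIP lay between the other groups. The group means were 55.7 ± 9.94, 21.3 ± 2.14 and 8.17 ± 0.0649 CPM (SD, n = 2 each). Fitted log2 fold changes were 1.39 (SE 0.23) for CPEB4 RIP over IgG RIP, 2.77 (SE 0.24) over input, and 1.38 (SE 0.23) for IgG RIP over input. IgG RIP was thus 2.60-fold above input, a step of about the same size as the 2.61-fold step from IgG RIP to CPEB4 RIP. Among the 7406 tested genes with a mean of at least 10 CPM, Igfbp7 ranked 17th from the highest for CPEB4 RIP over input, 51st for IgG RIP over input and 274th for CPEB4 RIP over IgG RIP.

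The Igfbp7 gene lies at chr5:77349240-77408045 on GRCm38.p6, the build of all positions given here, and the RefSeq span overlaps Polr2b, an RNA polymerase II subunit gene. Polr2b held 2998 counts over the 6 libraries and Igfbp7 2414. For the counting, the strand setting and the handling of shared reads were not given in the sources used here, and the files do not show how reads over the common stretch were assigned. Igfbp7 is also expressed by endothelial and mural cells. Both Igfbp7 and the endothelial marker sum were higher in replicate 1 than in replicate 2 of CPEB4 RIP. The other groups did not share this order. Igfbp7 was at 22.8 and 19.8 CPM with IgG and at 8.21 and 8.12 in input. The endothelial sum was higher in replicate 2 there, at 322 and 444 CPM with IgG and 354 and 383 in input. Of that sum, Fabp4 held 249 and 175 CPM with CPEB4, 77.8 and 118 with IgG, and 73.25 and 81.0 in input. Among the endothelial markers, Fabp4 rose over IgG RIP, Fabp4 and Cdh5 rose over input, and Tek fell against input. The pericyte and smooth muscle sum was 1401 and 1173 CPM with CPEB4, 1226 and 1552 with IgG, and 942 and 1066 in input. The part of endothelial and mural cells in the result was not tested.

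Igfbp4 encodes a soluble binding protein that mostly inhibits IGF action until the protease PAPP-A cleaves it (chr11:99040005-99052655). It measured 141 and 125 CPM with CPEB4, 37.9 and 52.6 with IgG, and 31.3 and 33.0 in input. Both CPEB4 RIP libraries were above the other 4, and IgG RIP lay just above input without overlap. Igfbp4 rose over IgG RIP by 1.55 on the log2 scale (SE 0.21, adjusted p = 0.00969 by the quasi-likelihood method of edgeR) and over input by 2.05 (SE 0.21, adjusted p = 0.00249). Without CPEB4 RIP replicate 2 the change over IgG RIP was 1.68 but no longer passed (adjusted p = 0.147). IgG RIP over input was 0.50 (SE 0.20, adjusted p = 0.337), with 0.59 without IgG RIP replicate 1 (adjusted p = 0.0239) and 0.17 without replicate 2 (adjusted p = 0.681).

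Igfbp6 encodes a binding protein with a preference for IGF2 (chr15:102144186-102149512). Its level was 102 and 66.1 CPM with CPEB4, 42.1 and 42.7 with IgG, and 27.3 and 40.8 in input. The CPEB4 RIP libraries were the highest, although they differed from each other more than the IgG RIP libraries did. The mean of 83.8 ± 25.1 CPM (SD, n = 2) in CPEB4 RIP compared with 42.4 ± 0.389 in IgG RIP and 34.1 ± 9.57 in input. Igfbp6 rose over input by 1.30 (log2, SE 0.28, adjusted p = 0.0234), a call that was lost without either CPEB4 RIP library or without input replicate 1 (adjusted p = 0.0732 to 0.143). The change over IgG RIP was 0.98 (SE 0.28) and did not pass (adjusted p = 0.0698). It passed without mitochondrial genes (adjusted p = 0.0459), without the filter on low counts (0.0012) and by the DESeq2 Wald test (0.00881). It also passed in the fits without IgG RIP replicate 1 or 2, where the IgG group is 1 library (adjusted p = 1.07e-04 and 2.86e-04). Fibroblasts also express Igfbp6, and its order over the libraries of CPEB4 RIP was that of the fibro-adipogenic marker sum, higher in replicate 1. Of those 10 markers, 2 rose over IgG RIP and 4 over input, beside 4.79% and 8.0% of all genes. Their median log2 fold change was 0.60 and 1.10, with 10 and 8 of them above 0. The part of these markers in the Igfbp6 result was not tested.

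Igfbp3 encodes the main IGF carrier of the circulation (chr11:7206086-7215498). Its level was 13.7 and 10.6 CPM with CPEB4, 9.92 and 9.44 with IgG, and 4.08 and 3.20 in input. All 4 RIP libraries were above both input libraries, and the CPEB4 RIP and IgG RIP values lay close together without overlap. Igfbp3 rose in CPEB4 RIP over input by 1.73 (log2, SE 0.34, adjusted p = 0.0185), and the call was lost without any 1 of the CPEB4 RIP or input libraries (adjusted p = 0.099 to 0.186). The change over IgG RIP was 0.33 (SE 0.33, adjusted p = 0.563). IgG RIP over input was 1.40 (SE 0.34, adjusted p = 0.203), and it passed in the fits with 1 IgG RIP library, without replicate 1 or 2 (adjusted p = 0.00462 and 0.0101).

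Igfbp5 encodes a binding protein of muscle and bone that binds extracellular matrix (chr1:72858065-72874865). Its level was 165 and 162 CPM with CPEB4, 101 and 189 with IgG, and 108 and 113 in input. The IgG RIP libraries spanned the values of every other library, so no order of CPEB4 RIP and IgG RIP could be read. Over IgG RIP the log2 fold change was 0.17 (SE 0.27, adjusted p = 0.709). Against IgG RIP replicate 1 alone it was 0.83 (adjusted p = 0.00151), and against IgG RIP replicate 2 alone -0.02 (adjusted p = 0.939), with the spread taken from the other groups. Over input the change was 0.57 (SE 0.27, adjusted p = 0.211), and it passed without either IgG RIP library, at 0.63 and 0.64 (adjusted p = 0.00145 and 0.00138), without the filter on low counts (adjusted p = 0.0315) and in a fit to only the 4 libraries compared (adjusted p = 0.00775). For IgG RIP over input it was 0.40 (SE 0.27, adjusted p = 0.560), which became 0.65 without IgG RIP replicate 1 (adjusted p = 0.00772) and -0.19 without replicate 2 (adjusted p = 0.595).

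Igfbp2, the neighbour of Igfbp5 on chromosome 1, encodes a binding protein prominent in fetal tissue (chr1:72824480-72852474). It had 2 and 14 counts with CPEB4, 13 and 1 with IgG, and 5 and 10 in input. These were 0.166 and 0.736 CPM, 1.39 and 0.0755 CPM, and 0.272 and 0.781 CPM. The groups overlapped, and the SE of each log2 fold change was 1.47 or 1.48, so no difference was detectable at this depth and with this spread of replicates. The log2 values were -0.61 over IgG RIP (adjusted p = 0.822) and -0.16 over input (adjusted p = 0.957), and 0.45 for IgG RIP over input (adjusted p = 0.939).

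The share of each binding protein in the whole can be compared within a library on the FPKM scale, which divides fragments by the length of the gene model. Summed FPKM of the 6 was 151 and 113 with CPEB4, 56.8 and 70.2 with IgG, and 41.9 and 50.5 in input. The summed level was highest in both CPEB4 RIP libraries, and all IgG RIP values were above all input values. Igfbp7 held 25.1% and 25.4% of that sum with CPEB4, 21.9% and 16.2% with IgG, and 11.8% and 9.45% in input. Igfbp4 held 15.4% and 17.8% in CPEB4 RIP against 9.95% to 12.3% in the other 4 libraries. The share of Igfbp5 was 13.3% and 17.0% with CPEB4, 19.6% and 31.1% with IgG, and 31.0% and 26.4% in input. Igfbp6 held the highest share in every library, at 37.4% to 51.7%, with overlapping groups. The FPKM ratio of Igfbp7 to Igfbp5 was 1.89 and 1.49 with CPEB4, 1.12 and 0.521 with IgG, and 0.379 and 0.358 in input. Shares add up to the whole, so a higher share of 1 message lowers the others.

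**Figure D2:**
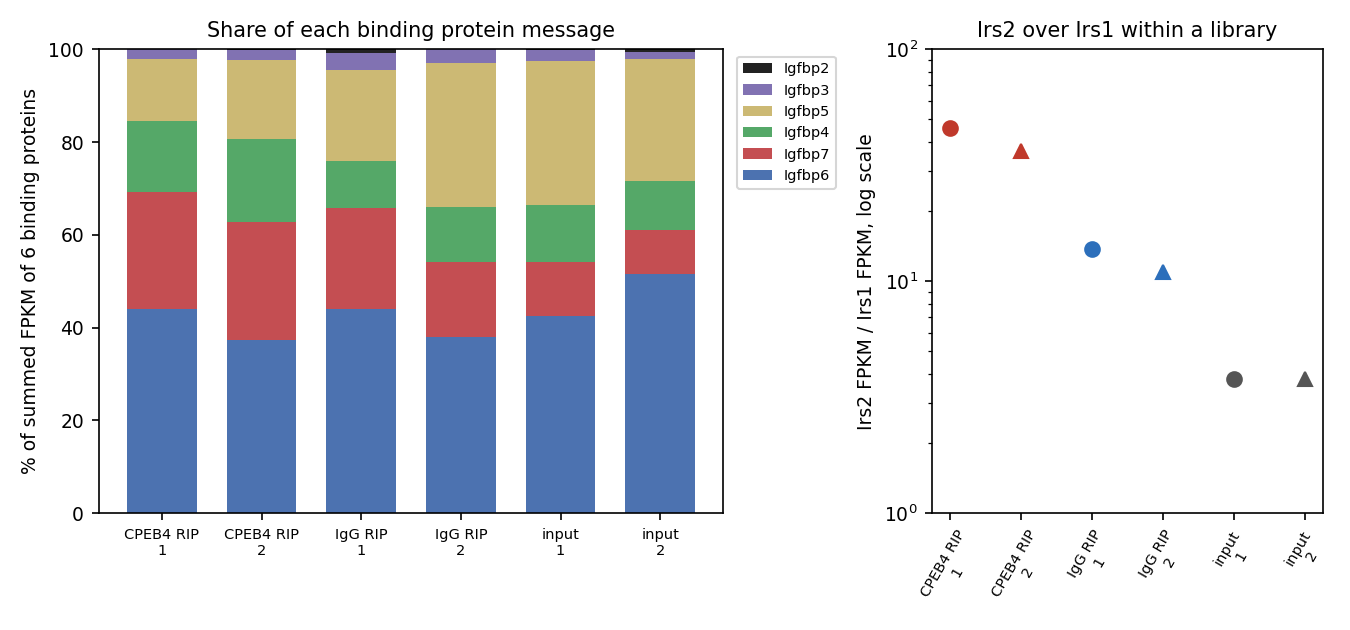
Left, the share of each of 6 binding protein messages in their summed FPKM, in percent, 1 stacked bar per library. Right, the FPKM of Irs2 divided by that of Irs1 in each library on a log scale, with circles for replicate 1 and triangles for replicate 2. The Igfbp7 share is 25.1% and 25.4% in CPEB4 RIP and 11.8% and 9.45% in input, and the Irs2 to Irs1 ratio is 45.9 and 36.3 in CPEB4 RIP against 3.80 and 3.81 in input.

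Neither receptor message passed the test in any of the 3 comparisons. Igf1r encodes the main receptor for IGF1 and lies at chr7:67952257-68233668. It measured 46.3 and 54.5 CPM with CPEB4, 40.6 and 45.5 with IgG, and 54.9 and 44.8 in input. The 3 groups lay within 1 range, with CPEB4 RIP just above IgG RIP. The log2 fold change was 0.23 over IgG RIP (SE 0.20, adjusted p = 0.500), 0.02 over input (SE 0.20, adjusted p = 0.971) and -0.21 for IgG RIP over input (SE 0.20, adjusted p = 0.705). With library size alone as the scaling, the value over input was -0.21, where the median of all genes moved by -0.21 as well.

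Insr encodes the insulin receptor (chr8:3150922-3279649). Its level was 9.86 and 10.1 CPM with CPEB4, 5.86 and 13.0 with IgG, and 7.02 and 13.4 in input. Both control groups had a low replicate 1 and a high replicate 2, and the CPEB4 RIP values lay between them. The log2 fold change was 0.08 over IgG RIP (adjusted p = 0.935), -0.03 over input (adjusted p = 0.979) and -0.10 for IgG RIP over input (adjusted p = 0.960), each with an SE of 0.47. Without IgG RIP replicate 1 the value over IgG RIP was -0.19 (adjusted p = 0.652), and without replicate 2 it was 0.91 (adjusted p = 0.0507). For IgG RIP over input the same fits gave 0.24 (adjusted p = 0.579) and -0.86 (adjusted p = 0.142). The ratio of Igf1r to Insr FPKM was 3.85 and 4.40 with CPEB4, 5.67 and 2.87 with IgG, and 6.41 and 2.73 in input, so Igf1r was the more abundant receptor message per length in every library.

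The substrates Irs1 and Irs2 stood on opposite sides of input in CPEB4 RIP. Irs1 encodes the substrate best known for linking insulin and IGF1 receptors to growth of muscle (chr1:82233105-82291439). It had 27 and 53 counts with CPEB4, 64 and 114 with IgG, and 167 and 98 in input. In CPM this was 2.24 and 2.79, 6.82 and 8.61, and 9.08 and 7.65. Both CPEB4 RIP libraries were below the other 4, while IgG RIP and input overlapped. Irs1 fell in CPEB4 RIP by 1.61 on the log2 scale against IgG RIP (SE 0.39, adjusted p = 0.0476), which is 3.06-fold lower. Against input it fell by 1.73 on the log2 scale (SE 0.39, adjusted p = 0.0284), which is 3.31-fold lower. Both calls were lost without either CPEB4 RIP library or either input library (adjusted p = 0.136 to 0.444 against IgG RIP and 0.133 to 0.325 against input), with log2 values from -1.74 to -1.26 and from -1.83 to -1.47. The call against IgG RIP lay close to the threshold and was also lost without mitochondrial genes (adjusted p = 0.0521), without a filter on low counts (0.0844), in a fit to only the 4 libraries compared (0.0985) and in limma on log2(FPKM + 1) without a filter (0.530). IgG RIP over input was -0.12 (SE 0.37, adjusted p = 0.939).

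Irs2 encodes the substrate best known for insulin action in liver and pancreatic beta cells, and its gene lies at chr8:10984681-11008929. Its level was 71.0 and 69.9 CPM with CPEB4, 65.0 and 64.9 with IgG, and 23.9 and 20.1 in input. All 4 RIP libraries stood near each other and about 3 times above input, and the RIP groups did not overlap. The group means were 70.4 ± 0.792, 65.0 ± 0.0684 and 22.0 ± 2.64 CPM (SD, n = 2 each). Fitted log2 fold changes were 0.12 (SE 0.18) over IgG RIP, 1.68 (SE 0.18) over input and 1.56 (SE 0.18) for IgG RIP over input. Irs2 was therefore 3.20-fold above input in CPEB4 RIP and 2.95-fold above input with control immunoglobulin. Its rank among the 7406 genes was the 21st from the highest for IgG RIP over input and the 250th for CPEB4 RIP over input, but the 3312th for CPEB4 RIP over IgG RIP.

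Set against each other within a library, Irs2 and Irs1 separated all 3 groups. The ratio of their FPKM was 45.9 and 36.3 with CPEB4, 13.8 and 10.9 with IgG, and 3.80 and 3.81 in input. The step from input to IgG RIP came with the higher Irs2 level and the step from IgG RIP to CPEB4 RIP with the lower Irs1 level. This ratio needs no scaling between libraries, and it carries no test because Irs2 was among the genes named for their values.

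On the FPKM scale the order of the 10 messages can be read within each group. In input the order was Igfbp6 (21.9), Igfbp5 (13.2), Igfbp4 (5.22), Igfbp7 (4.85), Irs2 (2.50), Igf1r (2.13), Igfbp3 (0.835), Irs1 (0.657), Insr (0.532) and Igfbp2 (0.204), as mean FPKM of 2 libraries. Irs2 overlapped Igf1r there, and Irs1 overlapped Insr. In CPEB4 RIP, Igfbp6 (54.4) was followed by Igfbp7 (33.2) and Igfbp4 (21.7), which overlapped Igfbp5 (19.6). Below them came Irs2 (8.02), Igfbp3 (2.80), Igf1r (2.16), Insr (0.524), Irs1 (0.197) and Igfbp2 (0.174), and the last pair overlapped. In IgG RIP, Igfbp6 (25.8) was again first, Igfbp5 (16.5) overlapped Igfbp7 (11.9), and Igfbp4 (6.96) overlapped Irs2 (6.95). Igfbp7 thus moved from the fourth place in input to the second in CPEB4 RIP, and Irs1, which overlapped Insr in input, lay below it without overlap.

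**Figure D3:**
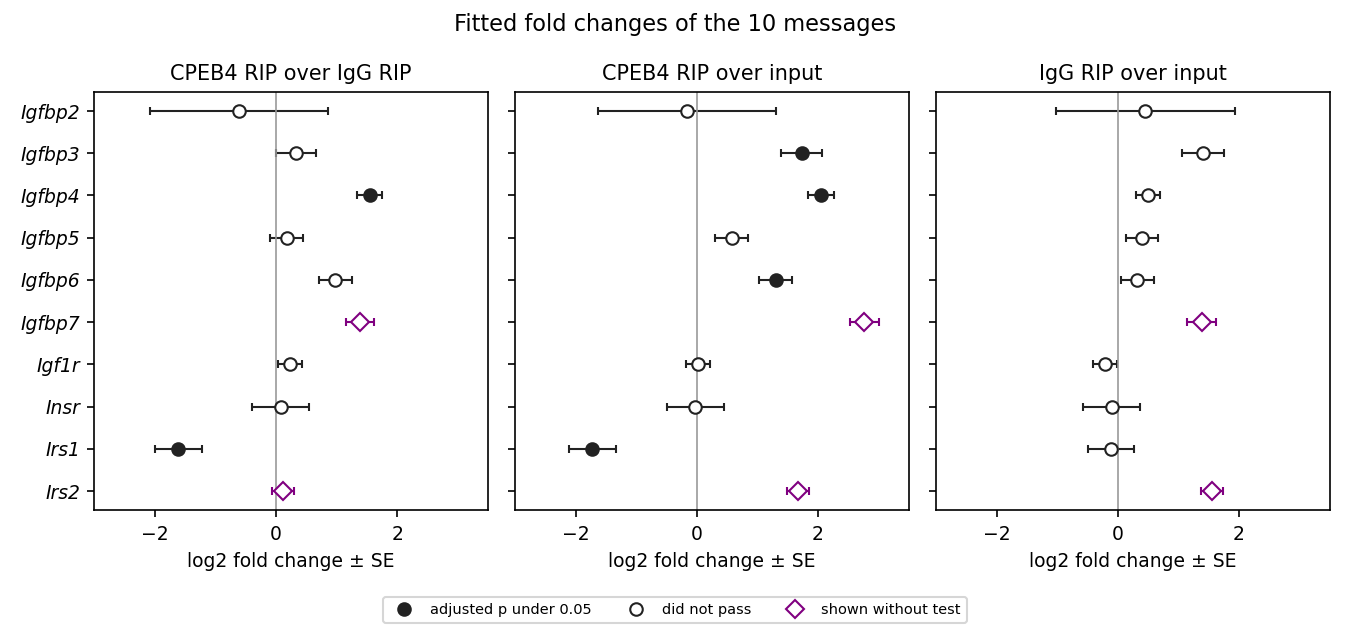
Fitted log2 fold changes with their standard errors for the 10 messages in the 3 comparisons. Filled circles passed an adjusted p of 0.05 over all genes, open circles did not, and diamonds mark Igfbp7 and Irs2, which are shown without a test. Igfbp4 is at 1.55 and 2.05 and Irs1 at -1.61 and -1.73 in the CPEB4 comparisons, and Irs2 is at 1.56 in IgG RIP over input.

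For IgG RIP over input, edgeR called none of the 10, and 0% of all genes passed. At an unadjusted p under 0.05 there were 4 of the 10, all higher and among them Igfbp3 and Igfbp4, against 14.1% of all genes (2550 genes, 1372 of them higher). The DESeq2 Wald test called 3 of the 10 higher, among them Igfbp3, with 427 genes higher and 279 lower in all. These counts include Igfbp7 and Irs2, which were picked for their values. They are descriptions and no test of those genes. Without IgG RIP replicate 1 edgeR called 5 of them higher, beside 11.0% of all genes, and without IgG RIP replicate 2 it called 3, beside 2.87%. The median log2 fold change of the 10 was 0.42, beside 0.05 for all genes, which is a description too. Fitted log2 values for IgG RIP over input were 1.56 for Irs2, 1.40 for Igfbp3 and 1.38 for Igfbp7, beside 1.68, 1.73 and 2.77 for CPEB4 RIP over input, and these comparisons share the input libraries.

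By Pearson correlation of log2 CPM over the 6 libraries, the 3 genes most like Igfbp7 among 7405 others were Ptpn11 (r = 0.997), which encodes the phosphatase SHP2, Atf5 (0.996), a transcription factor gene, and Rpl3 (0.995), a ribosomal protein gene. All 3 had the order CPEB4 RIP above IgG RIP above input, with Atf5 at 66.1 and 61.3, 31.7 and 28.6, and 15.8 and 17.1 CPM. The 3 most like Irs2 were Rilpl1 (r = 0.997), Noct (0.993) and Mif (0.993). Each of those was nearly level between the RIP groups and lower in input, with Mif at 197 and 197, 182 and 188, and 120 and 121 CPM. The 6 points of each correlation are 3 pairs of replicates, so these values describe a shared order of groups.

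The rest of the pathway was read from 8 lists that together held 92 genes, of which 82 were tested. Over IgG RIP, 3 rose (Grb2, Ptpn1 and Eif4ebp1) and 5 fell (Ccn1, Grb10, Fbxo32, Sesn1 and Bcl6), beside 4.79% and 3.42% of all genes. Over input, 14 rose and 3 fell, beside 8.0% and 4.70% of all genes. The median log2 fold change of the 82 was 0.00 over IgG RIP and 0.14 over input, beside -0.07 and -0.06 over all genes. Calls depended on single libraries: over IgG RIP none of the 82 was called without either CPEB4 RIP library, while 24 were higher and 12 lower without IgG RIP replicate 1, and 26 and 10 without replicate 2. Of all genes, 23.6% were higher and 13.4% lower in the first of these fits, and 18.5% and 16.5% in the second. Without input replicate 1 or 2, 3 were higher and 0 lower over IgG RIP. Over input, 1 and 0 were higher without CPEB4 RIP replicate 1 and 2, 2 without either input library, and 29 without either IgG RIP library, beside 2.34% and 0.439%, 1.73% and 2.45%, and 20.2% and 19.7% of all genes. No more than 1 was lower over input without a CPEB4 RIP or input library, and 8 and 7 were lower without IgG RIP replicate 1 and 2.

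**Figure D4:**
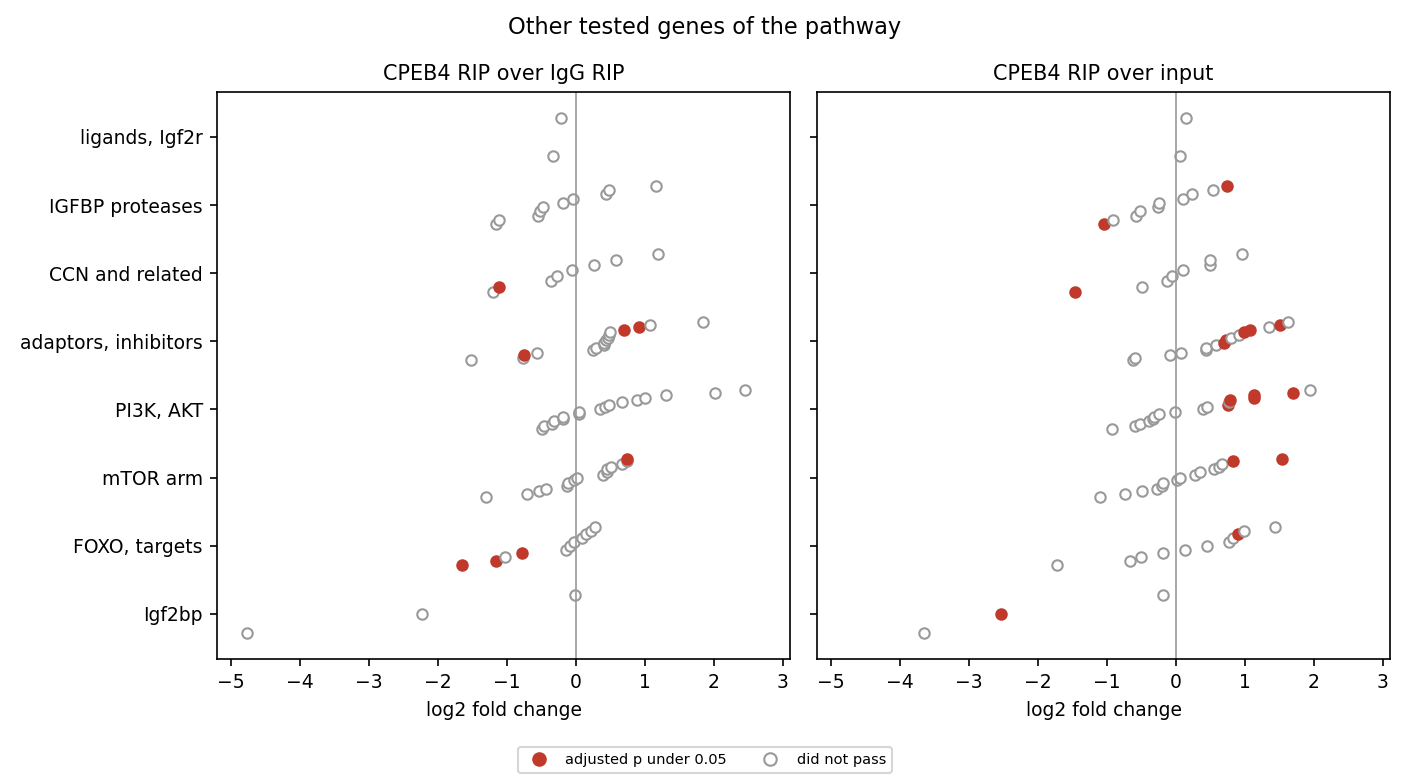
Fitted log2 fold changes of the 82 tested genes of the pathway other than the 10 messages, in rows by list, for CPEB4 RIP over IgG RIP (left) and over input (right). Each point is a gene, and filled points passed an adjusted p of 0.05 over all genes. The filled points over IgG RIP are 3 higher and 5 lower, and over input 14 higher and 3 lower.

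Of the ligands and other receptors, 2 of 9 genes were tested and neither passed. Igf1, the ligand that muscle makes locally, was at 136 and 190 CPM with CPEB4, 114 and 296 with IgG, and 106 and 189 in input. Replicate 2 was the higher library in each group, and the groups overlapped. Its log2 fold change was -0.33 over IgG RIP (SE 0.45, adjusted p = 0.668) and 0.15 over input (SE 0.45, adjusted p = 0.860). The direction over IgG RIP turned on 1 library: Igf1 was at -0.67 without IgG RIP replicate 1 (adjusted p = 0.0112) and at 0.66 without replicate 2 (adjusted p = 0.0236). Igf2r, which encodes a receptor that clears IGF2, measured 276 and 293, 324 and 336, and 263 and 284 CPM in CPEB4 RIP, IgG RIP and input, and did not pass (adjusted p = 0.353 over IgG RIP and 0.819 over input). Igf2 had 2 to 14 counts per library and was not tested.

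Among 10 genes of proteases that cleave binding proteins and of their regulators, none passed over IgG RIP and 1 passed in each direction over input. Htra3, a secreted serine protease gene, rose over input by 0.75 (log2, SE 0.19, adjusted p = 0.0407), from 142 and 108 CPM to 214 and 206. Ide, which encodes the insulin-degrading enzyme, fell by 1.04 (log2, SE 0.24, adjusted p = 0.0323), from 27.0 and 30.1 CPM to 12.1 and 15.5. IgG RIP was between the other groups for both genes, without overlap for Ide. Of 8 genes of the related CCN family and similar proteins, Ccn1, a matrix protein gene induced by growth factors, was the only one called. It stood at 320 and 360 CPM with CPEB4, 909 and 568 with IgG, and 1123 and 756 in input. Ccn1 fell by 1.12 against IgG RIP (log2, SE 0.26, adjusted p = 0.0445) and by 1.47 against input (SE 0.27, adjusted p = 0.0136). The call against IgG RIP was lost without mitochondrial genes (adjusted p = 0.059) and with only the 4 libraries compared (0.0782). It was also lost in each limma fit (0.0553 to 0.201).

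In the list of 18 adaptors and inhibitors, 16 genes were tested, with 2 higher and 1 lower over IgG RIP and 5 higher over input. Grb2, the adaptor that couples receptors to RAS, was at 172 and 178 CPM with CPEB4, 91.4 and 93.9 with IgG, and 60.4 and 62.9 in input. Its groups were tight and did not overlap. Grb2 rose over IgG RIP by 0.92 (log2, SE 0.15, adjusted p = 0.0150) and over input by 1.51 (SE 0.15, adjusted p = 0.0022). Ptpn1 encodes PTP1B, the phosphatase that switches off the insulin receptor, and rose to 271 and 264 CPM from 156 and 174 with IgG and from 175 and 149 in input. Its changes were 0.70 over IgG RIP (adjusted p = 0.0365) and 0.72 over input (adjusted p = 0.0228). Grb10, an adaptor that inhibits both receptors, was lower at 130 and 123 CPM than in IgG RIP (204 and 221 CPM), by -0.75 on the log2 scale (adjusted p = 0.0414). It did not pass against input (221 and 169 CPM, adjusted p = 0.0540). Its call against IgG RIP was lost without mitochondrial genes (adjusted p = 0.0511) and in each limma fit (0.0810 to 0.265). Over input, Ptpn11 rose by 0.99, and the cytokine signalling inhibitors Socs2 and Socs3 rose by 0.70 and 1.07 (adjusted p = 0.0078, 0.0256 and 0.0316). None of these 3 passed over IgG RIP (adjusted p = 0.0905 to 0.336).

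All 17 genes of the phosphoinositide 3-kinase and AKT list were tested, none passed over IgG RIP, and 5 rose over input. Akt1, the gene of an AKT kinase, was at 54.7 and 50.8 CPM with CPEB4, 14.7 and 27.9 with IgG, and 19.5 and 12.8 in input. The CPEB4 RIP libraries were above all others, and the control groups overlapped. Akt1 rose over input by 1.70 (log2, SE 0.34, adjusted p = 0.0198), and over IgG RIP its change was 1.30 (SE 0.34, adjusted p = 0.0593). That change passed with DESeq2 size factors (adjusted p = 0.0464), without mitochondrial genes (0.0413), without the filter on low counts (1.79e-04), by the DESeq2 Wald test (0.00255) and in limma on log2(FPKM + 1) (0.0428). It did not pass with library size alone (adjusted p = 0.05475), with only the 4 libraries compared (0.0624) or with replicate number as a further term (0.0615). Nor did it pass in limma on log2(FPKM + 0.1) (0.0563) or in limma without a filter (0.163). The change was 1.10 without IgG RIP replicate 1 and 1.98 without replicate 2. It was 1.46 and 1.40 without CPEB4 RIP replicate 1 and 2, and did not pass in either fit. Over input, Akt1 was at 1.45 to 2.06 in fits without 1 of the CPEB4 RIP or input libraries, and the call was lost in each. Akt2, which encodes a related kinase, rose over input by 0.78 (adjusted p = 0.0156). Pik3ca, the gene of a catalytic subunit of phosphoinositide 3-kinase, rose over input by 0.76 (adjusted p = 0.0387).

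Of the 15 genes of the mTORC1 arm, 1 rose over IgG RIP and 2 over input. Both encode binding proteins that hold the cap-binding factor eIF4E until mTORC1 phosphorylates them. Eif4ebp1 was at 679 and 638 CPM with CPEB4, 351 and 435 with IgG, and 339 and 402 in input. It rose over IgG RIP by 0.75 (log2, SE 0.16, adjusted p = 0.0366) and over input by 0.83 (SE 0.16, adjusted p = 0.0180). Eif4ebp2 was at 31.7 and 23.3 CPM with CPEB4, 16.1 and 16.8 with IgG, and 9.46 and 9.45 in input. It rose over input by 1.54 (adjusted p = 0.0110) and did not pass over IgG RIP (0.74, adjusted p = 0.119).

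Among 12 FOXO genes and FOXO targets, 11 were tested, with 3 lower over IgG RIP and 1 higher over input. Fbxo32 encodes atrogin-1, the ubiquitin ligase of muscle wasting, and measured 4.06 and 5.78 CPM with CPEB4, 12.8 and 18.4 with IgG, and 7.99 and 7.73 in input. The IgG RIP libraries were the highest here, and CPEB4 RIP was below input too. Fbxo32 fell against IgG RIP by 1.66 (log2, SE 0.36, adjusted p = 0.0344) and did not pass against input (adjusted p = 0.262). The call against IgG RIP was lost with only the 4 libraries compared (adjusted p = 0.0624) and in each limma fit (0.0728 to 0.205). Sesn1, a stress-response gene that restrains mTORC1, and Bcl6, a transcriptional repressor gene, fell against IgG RIP by 1.16 and 0.78 on the log2 scale (adjusted p = 0.0482 and 0.0282). Their levels in CPEB4 RIP (16.2 and 18.5 CPM for Sesn1, 134 and 137 for Bcl6) were below both input values (26.2 and 22.9, and 140 and 169), and neither passed against input (adjusted p = 0.292 and 0.467). Cdkn1b, which encodes the cell cycle inhibitor p27, rose over input by 0.90 (adjusted p = 0.0437) and was at -0.03 over IgG RIP. Its input libraries (124 and 175 CPM) were below all RIP libraries (236 to 333 CPM).

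The last list held the 3 IGF2 message-binding proteins, regulators of message stability. Igf2bp3 had few reads, at 9 and 12 counts with CPEB4, 34 and 38 with IgG, and 54 and 66 in input. Igf2bp3 was at 0.746 and 0.630 CPM with CPEB4, 3.62 and 2.87 with IgG, and 2.94 and 5.15 in input. It fell against input by 2.54 (log2, SE 0.61, adjusted p = 0.0348) and did not pass against IgG RIP (-2.23, adjusted p = 0.0662). For IgG RIP over input, edgeR called none of the 82 genes, while 17 were under an unadjusted p of 0.05, beside 14.1% of all genes. The DESeq2 Wald test called 7 higher and 0 lower, beside 2.37% and 1.55% of all genes. Without IgG RIP replicate 1 edgeR called 17 higher and 15 lower, and without replicate 2 it called 3 and 6, beside 11.0% higher and 20.9% lower of all genes in the first fit and 2.87% and 5.36% in the second.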

How the data were processed

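RNA of sorted mouse muscle stem cells was sequenced in 6 libraries. The authors deposited a table of raw read counts per gene and a table of FPKM. Per the submitters' processing notes, HISAT2, featureCounts and the mm10 build were used, with versions, annotation and strand setting not given in the sources used here. All 10 members and the pathway and marker lists were chosen with earlier results of these data known. From the counts, edgeR 4.0.16 in R 4.3.3 fitted a quasi-likelihood model with group as its term to all 6 libraries (3 residual degrees of freedom), after filterByExpr (minimum count 10, minimum total 15, 18054 genes kept) and TMM scaling. Tests were two-sided with Benjamini-Hochberg adjustment over all genes and a threshold of 0.05. CPM values carry the TMM factors. The SE of a log2 fold change is its size over the root of the F statistic. The deposited FPKM values served for ratios and orders within a library. Named genes were the 10 members, every pathway gene past the threshold in any comparison, Igf1, Igf2, Igf2r, Cpeb4 and the 3 genes most like Igfbp7 and Irs2. Positions are from RefSeq on GRCm38.p6. Alternatives were other scalings and filters, DESeq2 1.42.0, limma 3.58.1 on log2 FPKM with a pseudocount of 1 or 0.1, a replicate block, and leaving out each library. Some genes of the pathway lists are counted but not reported here by name.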

Additional observations from a re-analysis of the deposited data

How the results depend on the processing

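The log2 fold changes of Igfbp4, Igfbp6, Igfbp7 and Irs1 in both CPEB4 RIP comparisons, and of Igfbp3 and Irs2 over input, kept their direction under every alternative in which they were tested. Irs1 was not called lower against IgG RIP without mitochondrial genes, without a low-count filter or with only the 4 libraries compared. Nor was it called there in the replicate block fit (adjusted p = 0.0664) or in limma without a filter. Against input it was not called without the low-count filter or in limma without a filter. The 2 filtered limma fits did not include Irs1, which is under 1 FPKM. Limma without a filter called 3 of the 10 higher over input in place of 5, without Igfbp3 and Igfbp6, beside 1.35% of all genes. Of the pathway genes over IgG RIP, 5 were higher and 3 lower without mitochondrial genes, beside 6.18% and 3.13% of all genes. With the DESeq2 Wald test 5 and 8 were, beside 8.54% and 7.48%. In limma without a filter 0 and 0 were, beside 0.605% and 0.0895%. Lower calls there were 8 without the low-count filter and 2 with only the 4 libraries, beside 2.01% and 2.42% of all genes. They were 1 in each filtered limma fit, beside 3.37% and 3.3%. Over input, 8 were higher and 5 lower with library size alone, beside 6.05% and 7.8% of all genes. With only the 4 libraries 24 and 9 were, beside 20.9% and 22.4%. In limma without a filter 1 and 0 were, beside 1.35% and 0.629%. Lower calls over input were 1 without the low-count filter and 5 with DESeq2, beside 1.88% and 8.13%. For IgG RIP over input, 2 of the 10 and 3 pathway genes were higher without the low-count filter, beside 0.627% of all genes. With DESeq2 3 and 7 were, beside 2.37%. Igf1r over input was -0.036 with DESeq2 size factors, -0.21 with library size alone, -0.036 with DESeq2 and -0.026 with only the 4 libraries. Insr over input was 0.090 without the filter, 0.066 in the replicate block fit and 0.00048 in limma without a filter. Library size alone moved the median of all genes by -0.21 over input and by -0.13 for IgG RIP over input. Igfbp2 had 45 counts in all, with 2 and 14 in CPEB4 RIP and 13 and 1 in IgG RIP.

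Leaving out 1 library at a time gave 0 to 4 of the 10 higher and 0 to 1 lower over IgG RIP, 2 to 6 higher and 0 to 1 lower over input, and 0 to 5 higher and 0 lower for IgG RIP over input. Pathway genes ranged over 0 to 26 higher and 0 to 12 lower, 0 to 29 and 0 to 8, and 0 to 17 and 0 to 15 in the same comparisons. The cause was not tested. Log2 fold changes that changed sign ranged, over IgG RIP, from -1.98 to 2.71 for Igfbp2, -0.024 to 0.83 for Igfbp5 and -0.19 to 0.91 for Insr. Over input they ranged from -1.54 to 0.75 for Igfbp2, -0.11 to 0.24 for Igf1r and -0.41 to 0.53 for Insr. For IgG RIP over input they ranged from -2.73 to 1.37 for Igfbp2, -0.19 to 0.65 for Igfbp5, -0.057 to 0.51 for Igfbp6 and -0.86 to 0.29 for Insr.

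The labels do not say whether same-numbered libraries are pairs, and 2 pairs are too few to settle it. Deviations of same-numbered libraries from their group means correlated at 0.13 between CPEB4 RIP and IgG RIP, -0.02 between CPEB4 RIP and input and 0.07 between IgG RIP and input, over the genes tested. The replicate block fit called 1066 genes higher and 784 lower over IgG RIP, against 864 and 618 without the block. For IgG RIP over input it called 18 higher and 7 lower of all genes tested.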
